A study of Mus musculus with 12 samples.

Results

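The genes described here are 30 mouse genes of the heart and of the lateral mesoderm from which the heart forms, chosen by name. They are 11 regulators (the transcription factors Hand1, Hand2, Foxf1, Foxc1, Foxc2, Tbx5, Tbx20, Tcf21, Mef2c and Gata5, and the growth factor receptor Pdgfra) and 19 genes of the heart muscle cell (Myl2, Myl3, Myl4, Myl7, Myh6, Myh7, Tnnt2, Tnnc1, Tnni1, Tnni3, Nppa, Ryr2, Smyd1, Actn2, Pln, Ttn, Atp2a2, Mybpc3 and Csrp3). All 30 had a probe set annotated to them alone on chip A (MOE430A) and 9 also had one on chip B (MOE430B), out of 18193 genes with such a probe set on either chip. Where a gene had several probe sets on a chip, the one with the highest mean signal was used, so each gene has 1 value per array and chip.

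The study compared embryoid bodies, aggregates in which ES cells differentiate, with the ES cells they were made from. The embryoid bodies came from J1 mouse ES cells and were grown for 5 days in bacterial Petri dishes. Their medium was DMEM with antibiotics, glutamax, non-essential amino acids and serum of fetal calves at 10%. They were set against J1 ES cells grown for 2 days on 0.1% gelatin in the same medium with leukemia inhibitory factor, beta-mercaptoethanol and sodium pyruvate added. The labels give the ES cells a purity of 95%, judged by eye, with DR4 feeder cells as the contaminant, while the embryoid bodies carry no such estimate. Each state had 3 replicates, and every replicate was hybridized to both chips, which makes 12 arrays. Both groups are of 1 ES cell line, and the labels do not state whether replicates were separate cultures. The p-values therefore set each difference only against the scatter of these samples, which may be technical scatter.

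In the embryo the heart comes from lateral mesoderm that leaves the primitive streak and receives BMP signals while WNT signals are held back. Transcription factors such as Hand1, Hand2, Tbx5, Tbx20, Gata5 and Mef2c act in these precursors, and the genes of the sarcomere, the contractile unit of muscle, are switched on afterwards. Embryoid bodies kept in serum can later form patches of beating heart muscle cells.

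None of the 30 genes rose on chip A in 5-day embryoid bodies, and 1, the calcium pump gene Atp2a2, fell. The other 29 did not pass the test. The test was limma on log2(signal + pseudocount), adjusted by Benjamini-Hochberg across each chip's probe sets, and a gene passed at an adjusted p under 0.05. The pseudocount was the 20th percentile of the chip's values, 136 on chip A and 253 on chip B. Of all 22626 probe sets tested on chip A, 6.30% were called, 3.39% higher and 2.91% lower in embryoid bodies, so 1 call among 30 (3.33%) is no more than the share of the whole chip. An unadjusted p under 0.05 was seen for 5 of the 30, against 22.0% of all probe sets. The groups of arrays did not overlap for 7 of them, against 27.2% of all. In all 7 the embryoid bodies were below the ES cells, an order found in 14.0% of all probe sets, while the opposite order was found in 13.1%. The 95% interval of the log2 change ended below 1 for 27 of the 30 genes, and for 18611 of the 22626 probe sets of the chip. The pseudocount makes changes of dim genes look smaller on this scale, so this bound does not exclude a larger rise in signal. In these bulk samples, fewer cells of a type and less RNA per cell cannot be told apart.

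On chip B, 1 of the 9 genes rose, Ttn, and 1 fell, Hand2. The other 7 did not pass. On that chip 10.7% of the 22511 probe sets were called, 5.77% higher and 4.91% lower in embryoid bodies. An unadjusted p under 0.05 was seen for 3 of the 9 (28.1% of all probe sets), and the groups did not overlap for 3 (33.5% of all). Embryoid bodies lay below in 1 of these and above in 2, orders found in 16.2% and 17.3% of all probe sets. The chip A probe sets of Ttn and Hand2 did not pass. The chip B calls therefore describe single probe sets.

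Most members were dim. On chip A only Atp2a2, Mybpc3 and Hand1 had a mean signal above the chip's median of 623, and the median of the 30 means was 283. No detection calls were used here, so a low signal is not read as absence. A set of 8 markers of heart muscle cells (Tnnt2, Myh6, Myh7, Myl7, Actc1, Nkx2-5, Tnni3 and Ryr2) summed to 1957 to 3436 in embryoid bodies and 2933 to 3557 in ES cells. The 2 ranges overlapped and none of the 8 passed in limma, with 1, Myh6, at an unadjusted p under 0.05. A set of 6 lateral mesoderm markers (Hand1, Hand2, Foxf1, Tbx20, Bmp4 and Osr1) summed to 2293 to 3563 in embryoid bodies and 2669 to 4777 in ES cells, again with overlap and none past the threshold, 0 of them at an unadjusted p under 0.05. These sums rest most on their brightest genes, Actc1 and Nkx2-5 among the heart muscle markers and Bmp4 and Hand1 among the lateral mesoderm markers. Nkx2-5, a homeobox factor that marks heart precursors, had signals of 827, 784 and 517 in embryoid bodies, against 1269, 1266 and 807 in ES cells (log2 change -0.56, adjusted p = 0.259).

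**Figure D1:**
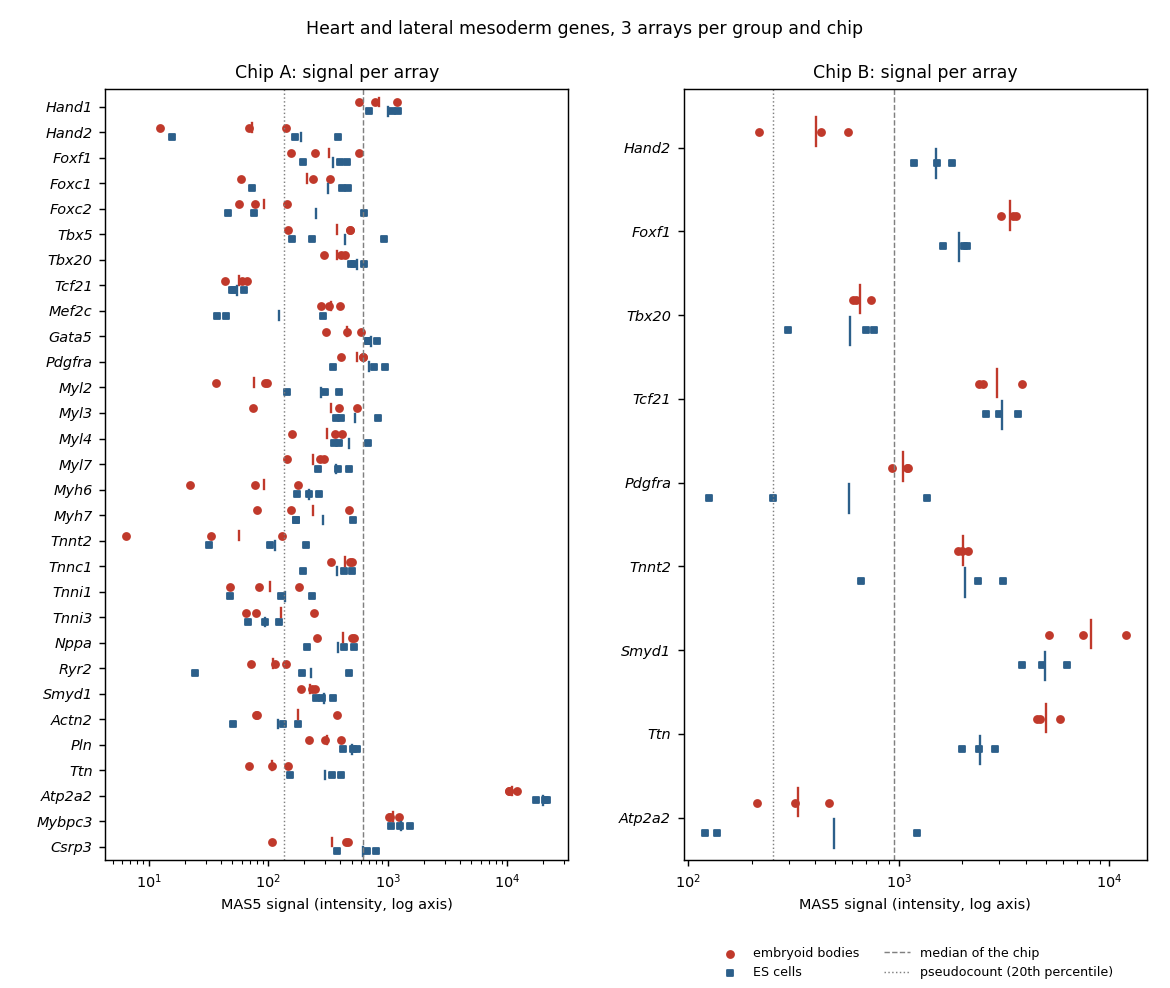
MAS5 signal (log axis) of each gene on each array, chip A left and chip B right, with embryoid bodies as red circles above ES cells as blue squares, short lines at the group means, the chip median dashed and the pseudocount dotted. On chip A all but 3 genes lie left of the chip median, and Atp2a2 stands alone at the right, its embryoid body arrays below its ES arrays.

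The promoters of 4 members are shown for reference, Hand2 and Ttn because they passed on chip B, and Myl7 and Nppa as genes of atrial muscle. Each run is the 250 bases before the start of the gene in RefSeq on GRCm38.p6, on the gene's strand. They lie at chr8:57320733-57320982 (plus strand), chr2:76982548-76982797 (minus strand), chr11:5898783-5899032 (minus strand) and chr4:148000472-148000721 (plus strand). Capitals mark matches, on either strand, to 6 motifs. The TATA box was searched as TATAAA. Motifs of GATA factors such as Gata5 were searched as AGATAA, with TGATAA also counted. The GC box was GGGCGG and the MCAT motif of muscle genes was CATTCC. The CArG box, bound by SRF, and the MEF2 site, bound by factors such as Mef2c, were searched by their usual patterns, each of which can hold the letters of a TATA box.
Hand2: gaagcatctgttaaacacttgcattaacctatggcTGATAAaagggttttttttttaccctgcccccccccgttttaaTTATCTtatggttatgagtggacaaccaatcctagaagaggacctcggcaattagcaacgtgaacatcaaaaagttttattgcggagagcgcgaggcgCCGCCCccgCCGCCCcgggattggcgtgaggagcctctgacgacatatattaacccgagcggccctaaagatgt
Ttn: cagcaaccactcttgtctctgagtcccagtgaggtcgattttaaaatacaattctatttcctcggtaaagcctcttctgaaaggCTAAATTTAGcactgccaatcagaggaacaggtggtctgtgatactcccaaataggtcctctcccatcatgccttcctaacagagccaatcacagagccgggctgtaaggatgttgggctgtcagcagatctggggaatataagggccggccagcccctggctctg
Myl7: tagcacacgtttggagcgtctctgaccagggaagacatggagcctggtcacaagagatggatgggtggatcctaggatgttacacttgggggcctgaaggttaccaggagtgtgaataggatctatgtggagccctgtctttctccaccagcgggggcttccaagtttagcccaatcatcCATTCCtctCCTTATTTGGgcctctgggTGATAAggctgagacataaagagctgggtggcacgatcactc
Nppa: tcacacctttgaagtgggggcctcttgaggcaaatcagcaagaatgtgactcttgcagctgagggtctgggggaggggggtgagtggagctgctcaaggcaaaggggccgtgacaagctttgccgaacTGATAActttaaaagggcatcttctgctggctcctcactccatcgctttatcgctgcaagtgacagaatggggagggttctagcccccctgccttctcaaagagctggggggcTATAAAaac

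Counting the base before the start as -1, the Hand2 window held GATA motifs at -215 to -210 and -172 to -167 and GC boxes at -74 to -69 and -65 to -60. The Ttn window held a MEF2 site at -166 to -157. In Myl7 an MCAT motif stood at -70 to -65, a CArG box at -61 to -52 and a GATA motif at -42 to -37, and in Nppa a GATA motif at -122 to -117 and a TATA box at -9 to -4. RefSeq windows were found for 25 of the 30 members, 32 windows in all. A GATA motif was in 8 of these 32 and in 16.6% of all 32851 promoter windows. The MCAT motif was in 7 of 32 and 12.6% of all, the CArG box in 2 and 1.47%, and the MEF2 site in 2 and 2.92%. The TATA box was in 6 of 32 and 12.4% of all, and the GC box in 7 and 32.7%. The median number of CpG pairs was 6 in the 9 windows of regulators and 4 in the 23 of muscle genes, against 6 in all windows. These matches describe the letters of the windows only.

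Among the 11 regulators on chip A, 0 rose and 0 fell in limma, with 1, Mef2c, at an unadjusted p under 0.05, and the median log2 change was -0.22. Hand1, a basic helix-loop-helix factor of lateral mesoderm, heart and extraembryonic tissue, was the brightest, with signals of 569.7, 788 and 1191 in embryoid bodies, against 1217, 1079 and 691 in ES cells. These values overlap, and the log2 change was -0.22 (95% interval -0.89 to 0.46). Pdgfra, a growth factor receptor of mesoderm that is also used to sort heart precursors, had 625, 403 and 622 in embryoid bodies, against 769, 955 and 347 in ES cells. Its groups overlapped too (log2 change -0.21, 95% interval -0.99 to 0.58).

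Gata5, a zinc finger factor of heart and endoderm precursors, had 598, 459 and 306 in embryoid bodies, against 808, 682 and 681 in ES cells. All embryoid body arrays were below all ES arrays, but the difference did not pass (log2 change -0.57, adjusted p = 0.283). Tbx20, a T-box factor of the forming heart, showed the same order, with 294, 402 and 441 in embryoid bodies, against 495, 631 and 519.5 in ES cells (log2 change -0.42, adjusted p = 0.427). An exact two-sided permutation test of 3 against 3 arrays cannot give a p below 0.1, the value that groups without overlap reach.

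Mef2c, a MADS box factor that activates muscle genes, had the highest log2 change of the 30 chosen probe sets on chip A. Its signals were 278, 323 and 398 in embryoid bodies, against 44.3, 286 and 37.1 in ES cells. The second ES array had the level of the dimmest embryoid body arrays, and the other ES arrays were far lower, under the pseudocount. The log2 change of 0.98 (95% interval 0.16 to 1.80) did not pass (adjusted p = 0.148). Without ES replicate 2 it was 1.40 and passed (adjusted p = 0.0329). The other chip A probe sets of Mef2c had log2 changes of 0.77, 0.04, -0.10 and -0.36. The one at 0.77 had 174, 186 and 158 in embryoid bodies, against 21.0, 32.8 and 86.3 in ES cells. Its groups did not overlap, but it did not pass in limma (adjusted p = 0.0653).

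The other 6 regulators on chip A were Hand2, the forkhead factors Foxf1, Foxc1 and Foxc2, the T-box factor Tbx5 and Tcf21, a factor of epicardium and other mesoderm. Their group means lay between 56.8 and 372 in embryoid bodies and between 54.5 and 439.6 in ES cells, and the groups overlapped in all 6. Their log2 changes ran over -0.50 for Hand2, -0.45 for Foxc2, -0.34 for Foxc1, -0.13 for Foxf1, -0.03 for Tbx5 and 0.02 for Tcf21. Tcf21 averaged 56.8 ± 11.8 in embryoid bodies and 54.5 ± 7.16 in ES cells (SD, n = 3 each), below the pseudocount in both states, which leaves no level to compare.

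On chip B a probe set for Hand2, a helix-loop-helix factor needed for the right ventricle and the branchial arches, fell. Its signals were 218, 576 and 425 in embryoid bodies, against 1178, 1797 and 1517 in ES cells. Each embryoid body array was below the lowest ES array, and the group means were 406 ± 179.6 in embryoid bodies and 1498 ± 310.2 in ES cells (SD, n = 3 each). The log2 change was -1.43 (SE 0.38, adjusted p = 0.0404). Between arrays run in the same fluidics position it was -1.60, -1.31 and -1.38, and with that position as a block the adjusted p was 0.0556. The call was lost on leaving out any 1 of the 6 arrays, with adjusted p values of 0.0502 to 0.122. The other chip B probe set of Hand2 had a log2 change of 0.05 at a mean signal of 111, and the chip A probe set had 68.3, 12.5 and 139 in embryoid bodies, against 166, 379.7 and 15.8 in ES cells. In each of the 3 Hand2 probe sets at least 1 embryoid body array was under the pseudocount of its chip.

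Foxf1, a forkhead factor of the lateral mesoderm around the gut, was higher in each embryoid body array on chip B, with 3067, 3476 and 3612 in embryoid bodies, against 1622, 2108 and 2046 in ES cells. Its log2 change of 0.74 did not pass (adjusted p = 0.0628), and on chip A the value was -0.13. With only the brighter probe sets tested, it passed on chip B (adjusted p = 0.0471), and also with all probe sets of each gene averaged (adjusted p = 0.03895). Pdgfra on chip B had 1110.1, 923 and 1093 in embryoid bodies, against 1368, 253 and 126 in ES cells. The first ES array was above all embryoid body arrays and the other ES arrays were far below them, and the log2 change of 0.93 had a wide interval (95% interval -0.25 to 2.11). Tcf21 on chip B was bright, with 2395, 3834 and 2520.0 in embryoid bodies, against 2589.8, 3678 and 3001 in ES cells, and its log2 change was -0.09. Tbx20 on chip B averaged 655 ± 72.7 in embryoid bodies and 588 ± 252 in ES cells (SD, n = 3 each) at a log2 change of 0.16. Foxf1, Foxc1, Tcf21 and Pdgfra are also expressed by fibroblasts, and ES cells held feeder fibroblasts by their label. In a list of 21 fibroblast genes measured on chip A, which includes these 4, 0 rose and 6 fell, and the summed signal was 11759.7 to 14359.8 in embryoid bodies and 26359 to 39901 in ES cells. The largest fall, in the collagen gene Col1a1, passed at group means of 48.6 ± 20.2 in embryoid bodies and 4923 ± 1554 in ES cells (SD, n = 3 each), and its embryoid body arrays were all under the pseudocount. What part of these regulators' signals in ES cells came from feeders was not tested.

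Among the 19 genes of the heart muscle cell on chip A, 0 rose and 1 fell, with a median log2 change of -0.38. The fall was in Atp2a2, which encodes SERCA2, the pump that returns calcium to the sarcoplasmic or endoplasmic reticulum and is used by most cell types. Atp2a2 had signals of 10272, 12105 and 10276 in embryoid bodies, against 21506, 17518 and 20481 in ES cells. Every embryoid body array was below every ES array, and the group means were 10884 ± 1057 in embryoid bodies and 19835 ± 2071 in ES cells (SD, n = 3 each). The log2 change was -0.86 (SE 0.15, adjusted p = 0.0108), 1.81-fold lower in embryoid bodies. Between arrays of the same fluidics position it was -0.82 and -0.76, and with that position as a block the adjusted p was 0.0352. The call was lost without EB replicate 1 (adjusted p = 0.0604) and without ES replicate 1 (adjusted p = 0.0542).

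The other probe sets of Atp2a2 did not pass. Their log2 changes were -0.56, -0.30 and -0.48 on chip A and -0.05 and -0.40 on chip B. As a description over 6 arrays, the genes called on chip A whose log2 profile was most like that of Atp2a2 were Mrps18b (Pearson r = 0.998), Calml4 (0.997), Pla2g4a (0.995), Mcpt8 (0.994) and Rcc1 (0.994), out of 854 compared. All of them, like Atp2a2, were chosen for a difference between the same groups.

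Phospholamban, encoded by Pln, inhibits the pump of Atp2a2 in heart muscle. Pln had 221, 299 and 406 in embryoid bodies, against 554, 423 and 514 in ES cells, again with every embryoid body array below every ES array, but it did not pass (log2 change -0.53, adjusted p = 0.338). Ryr2, the calcium release channel of heart muscle, averaged 108 ± 34.5 in embryoid bodies and 228 ± 225 in ES cells (SD, n = 3 each). The ES arrays spanned a wide range, and the log2 change of -0.38 was within their spread.

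The myosin genes, whose proteins form the thick filament, included no call. Myl2, the regulatory light chain of the ventricle, had 94.5, 97.1 and 36.7 in embryoid bodies, against 299, 386 and 143 in ES cells. No array overlapped and the log2 change was the most negative of the 30 chosen probe sets on chip A, -0.92 (95% interval -1.58 to -0.26). It did not pass (adjusted p = 0.0988). Without ES replicate 3 it was -1.18 and passed (adjusted p = 0.0374). Myh6, the alpha heavy chain of atrial and adult mouse heart muscle, had 77.5, 176 and 22.0 in embryoid bodies, against 218, 266 and 175 in ES cells. The highest embryoid body array slightly exceeded the lowest ES array, and the log2 change of -0.69 did not pass (adjusted p = 0.200). The beta heavy chain gene Myh7, the light chain genes Myl3 and Myl4 and the atrial light chain gene Myl7 had log2 changes of -0.23, -0.59, -0.48 and -0.45, with overlapping arrays in all 4. Mybpc3, a myosin-binding protein of heart muscle and the second brightest member on chip A, had 1233, 1038 and 1031 in embryoid bodies, against 1519, 1269 and 1067 in ES cells. Its groups overlapped at a log2 change of -0.19 (95% interval -0.65 to 0.27).

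The thin filament and Z disc genes lay on both sides of zero. Tnnc1, the troponin C of slow and heart muscle, had 498, 336 and 482 in embryoid bodies, against 429.5, 498 and 196 in ES cells (log2 change 0.21). Actn2, the alpha-actinin of the Z disc, had 78.2, 374 and 80.2 in embryoid bodies, against 50.2, 178 and 133 in ES cells (log2 change 0.19). In both genes the groups overlapped. The troponin genes Tnni3, Tnni1 and Tnnt2 had log2 changes of 0.14, -0.17 and -0.37. Nppa, the atrial natriuretic peptide, and Csrp3, a LIM protein of the Z disc, had 0.12 and -0.72. The 10 muscle genes given here without a value per array had group means between 56.4 and 425 in embryoid bodies and between 94.4 and 614 in ES cells. On chip B Tnnt2 had 1901, 2128 and 1999 in embryoid bodies, against 3133, 2378 and 658 in ES cells, and Atp2a2 464, 212 and 320.3 in embryoid bodies, against 1217, 119.9 and 137 in ES cells. In each of these, 1 ES array stood far from the other ES arrays and the groups overlapped.

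**Figure D2:**
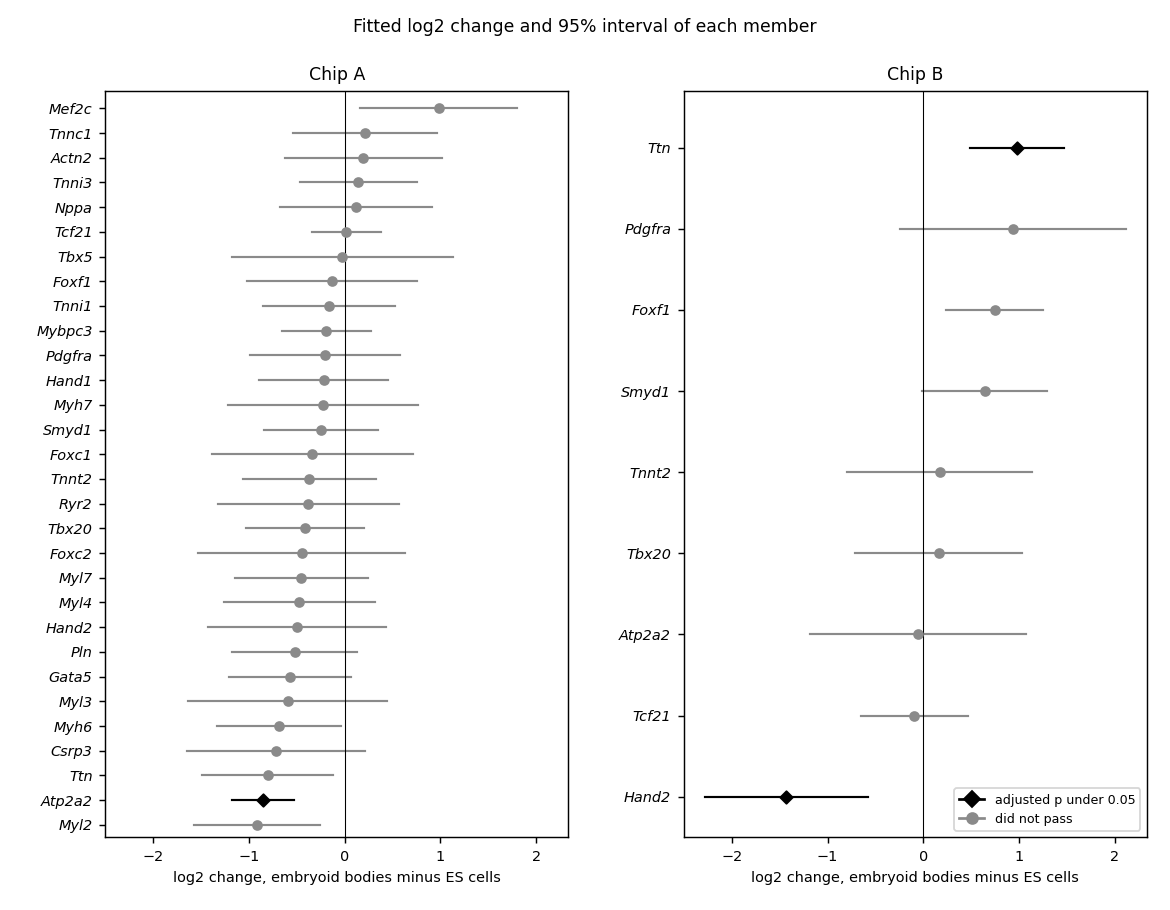
Fitted log2 change, embryoid bodies minus ES cells, with its 95% interval for the 30 genes on chip A (left) and the 9 on chip B (right), ordered by size, black diamonds for an adjusted p under 0.05. On chip A 24 of 30 values are negative and 1, Atp2a2, passed. On chip B Ttn passed upward and Hand2 downward.

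Titin, the giant spring protein encoded by Ttn, gave opposite signs on the chips. On chip A Ttn had 107, 145 and 69.0 in embryoid bodies, against 153, 339.8 and 409 in ES cells, with no overlap and a log2 change of -0.80 that did not pass (adjusted p = 0.156). On chip B it had 5851, 4680.2 and 4517 in embryoid bodies, against 1999.6, 2874 and 2406 in ES cells, with every embryoid body array above every ES array. That log2 change was 0.98 (SE 0.22, adjusted p = 0.0226), and between arrays of the same fluidics position 1.44, 0.66 and 0.84 (adjusted p = 0.0391 with that position as a block). The call on chip B was lost without EB replicate 1, ES replicate 1 or ES replicate 3 (adjusted p up to 0.0890). The other Ttn probe sets on chip B had log2 changes of -0.15, -0.20 and -0.02, and the other one on chip A 0.14. Averaging all Ttn probe sets on chip B gave 0.15, which did not pass.

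Smyd1, a methyltransferase of striated muscle needed for sarcomere assembly, was called in both directions by probe sets other than those chosen as its brightest. The one chosen on chip A, at a mean signal of 256.7, had 246, 189 and 231 in embryoid bodies, against 248, 281 and 345 in ES cells (log2 change -0.25), and the one chosen on chip B had 5179, 11923 and 7469.9 in embryoid bodies, against 3846, 6267 and 4777 in ES cells (log2 change 0.64, adjusted p = 0.186). Another chip A probe set of almost the same mean signal, 256.4, had 145, 50.6 and 93.9 in embryoid bodies, against 313, 497 and 439 in ES cells, lower in every embryoid body array, and fell (log2 change -1.25, adjusted p = 0.0329). A dimmer chip B probe set had 173, 656 and 271 in embryoid bodies, against 63.0, 45.8 and 18.7 in ES cells, higher in every embryoid body array, and rose (log2 change 0.996, adjusted p = 0.0486). No single direction can be given for Smyd1.

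Over all 70 probe sets of the members, on both chips, 2 rose and 3 fell. On chip A this was 0 up and 2 down of 54 (3.70% called), against 6.30% of all probe sets of the chip. On chip B it was 2 up and 1 down of 16 (18.8% called), against 10.7% of all. Of the 19 genes with more than 1 probe set, 6 had 1 sign throughout and 13 had both. Probe sets of a gene can measure different transcript ends, and those of chip B, of which 0 of 16 were designed from a RefSeq transcript against 21 of 54 on chip A, come from other source sequences.

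**Figure D3:**
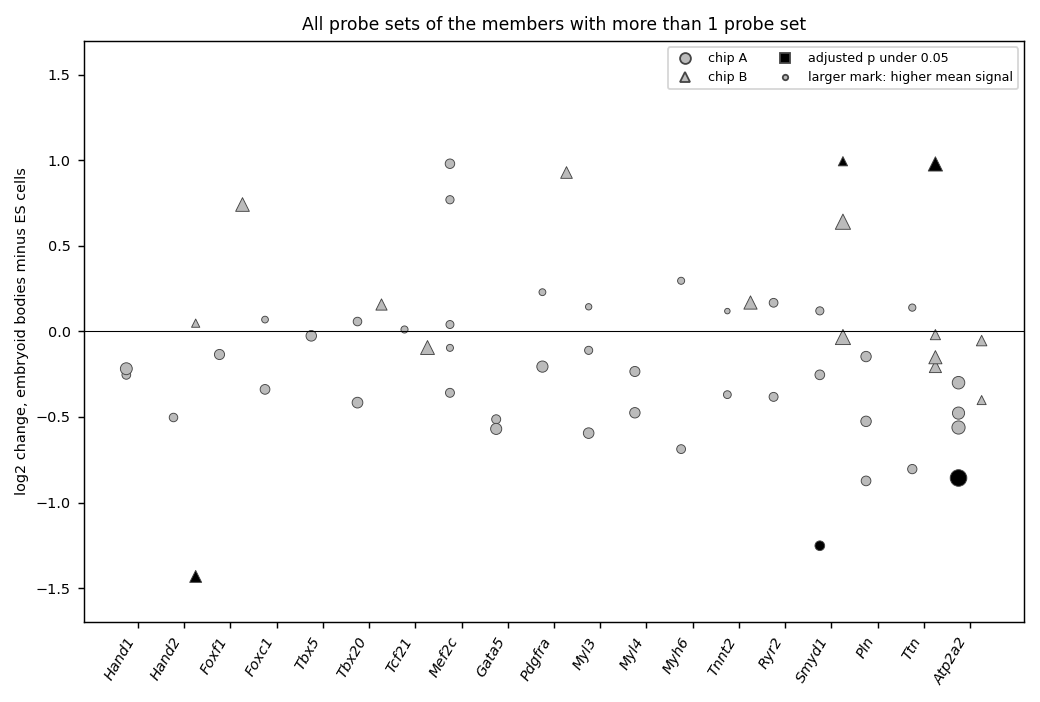
Log2 change, embryoid bodies minus ES cells, of each probe set of the 19 members with more than 1, circles for chip A and triangles for chip B, black where the adjusted p was under 0.05 and larger for a higher mean signal. Smyd1 has black marks on both sides of zero, and most genes have marks on both sides.

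Apart from single genes, the chosen probe sets of the members on chip A leaned downward. Their median log2 change was -0.35, against -0.05 over all probe sets of the chip and -0.09 over those with a mean under the chip median. Negative values made up 24 of 30, which is 80.0%, against 55.2% of all probe sets and 60.3% of those under the median. The 24 chip A probe sets of 16 members that were not chosen had a median of -0.05, with 13 negative (54.2%). Those not chosen were dimmer, with a median mean signal of 122, under the pseudocount of 136, against 283 for the chosen ones. Of those with a mean above the pseudocount, Ryr2 had 0.17 and the rest were negative, from -0.15 for Pln to -1.25 for Smyd1. The pseudocount makes changes of dim probe sets look smaller, so the median of -0.05 does not show that the lean was confined to the chosen ones. On chip B the median of the 9 members was 0.17, against -0.0014 over all. That median was 0.55, 0.36 and 0.32 without ES replicates 1, 2 and 3 in turn. On chip A the size of the lean varied with single arrays. ES replicate 2 was the highest of the ES arrays for 19 of the 30 members (63.3%), against 41.9% of all probe sets, and ES replicate 3 was the lowest for 20 (66.7%), against 40.8%. Over probe sets with a mean under the chip median these shares were 44.9% and 41.5%. Without ES replicate 2 the median of the members was -0.17, and without each other array in turn it was -0.47 to -0.25. It was -0.19 with the mean of all probe sets of a gene and -0.15 with the chip median as pseudocount. On each chip the embryoid body arrays came from 1 chip lot and the ES arrays from another, and no scan day held both groups, so lot and scan day cannot be told apart from the difference between the states.

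Genes around these 30 in the same pathway were grouped in lists that are not independent of earlier results of these data. Of 28 further lateral and cardiac mesoderm regulators, 0 rose and 1 fell, the adhesion molecule Alcam (log2 change -1.29, adjusted p = 0.0448). Their median was -0.21, and the brightest of them not to pass was Hopx, a homeodomain protein of heart precursors (log2 change -0.21). Of 34 further sarcomere, calcium handling and heart genes, 1 rose and 0 fell. The rise was in Tpm4, a tropomyosin of non-muscle cells (log2 change 1.11, adjusted p = 0.0169), and the brightest that did not pass was Tpm1, a tropomyosin of muscle and other cells (0.68).

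Of 22 genes for signals that induce heart mesoderm and their targets, 4 rose and 3 fell. Id3, a target of BMP signalling that blocks helix-loop-helix factors, had 7361, 6640.1 and 7856 in embryoid bodies, against 1904, 1753 and 1721 in ES cells (log2 change 1.94, adjusted p = 0.000232). Id2, of the same family, had a log2 change of 1.74 (adjusted p = 0.0339), and Dkk1, a secreted WNT antagonist, 1.62 (adjusted p = 0.0112). Tdgf1, a coreceptor of Nodal that is also an ES cell gene, fell by 1.69 on the log2 scale (adjusted p = 0.00781). The other falls were in Nodal (log2 change -1.17, adjusted p = 0.0330) and Smad7 (-0.96, adjusted p = 0.0396), and the other rise was in Id1 (1.17). The brightest of the list that did not pass was the BMP receptor gene Bmpr1a (adjusted p = 0.0546). Of 17 primitive streak and nascent mesoderm genes, which include Pdgfra, 5 rose and 0 fell. The gene T (Brachyury) was also listed but is not among the 17, as no probe set was annotated to it alone by that name. The largest rise was in Aplnr, a receptor of migrating mesoderm, with 2580.2, 941 and 3897 in embryoid bodies, against 179.5, 232 and 139 in ES cells (log2 change 2.84, adjusted p = 0.00732). The homeobox gene Lhx1 had a log2 change of 2.28, the WNT target Sp5 2.09 and the homeobox gene Evx1 1.87, all past the threshold. Eomes, the brightest of the 12 that did not pass, had an adjusted p of 0.0717. The log2 changes of these 12 ran from -0.67 for Msgn1 to 1.51 for Gsc. Mesp1 had 0.28, Mesp2 -0.02 and Tbx6 -0.13. Whether the list and the 30 members differ was not tested.

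Other lists mark cell types that the dishes could hold. Of 16 pluripotency genes, 12 fell and none rose. Pou5f1, the core factor of ES cells, had 7626, 7489 and 7949 in embryoid bodies, against 15435, 15924 and 12451 in ES cells (log2 change -0.91, adjusted p = 0.00781), lower in every embryoid body array. The largest falls among them were in Fgf4 (-2.95), Gdf3 (-2.78), Klf4 (-2.44) and Klf5 (-2.25), and the brightest that did not pass was Sox2 (-0.07). Of 10 neural ectoderm genes, 5 rose, led by the zinc finger gene Zic1 (3.22), Sox11 (2.32), Otx2 (1.23) and Pax6 (1.10), and Nes did not pass (-0.02). In the fibroblast list the falls after Col1a1 (-4.73) were S100a4 (-3.96), Fbln2 (-2.34) and Col6a1 (-1.48), and Col1a2 was the brightest that did not pass (adjusted p = 0.0518). Of 9 smooth muscle genes 1 rose, the myosin kinase gene Mylk (1.28), and the brightest, Acta2, did not pass (-0.34). None of 9 skeletal muscle genes passed in limma, with 1 at an unadjusted p under 0.05, and Pax3 was the brightest (0.16). Of 13 endoderm genes 1 rose, Foxa2 (1.22), and Lamb1 was the brightest that did not pass (-0.63). Of 12 blood and endothelial genes 1 fell, Pecam1 (-1.56), and Kdr, the receptor that marks heart and blood precursors, did not pass (0.11).

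Of the 39 genes called in these other lists, 13 passed whichever array was left out, namely Id1, Id3, Tdgf1, Aplnr, Pou5f1, Fgf4, Gdf3, Klf4, Klf5, Col1a1, S100a4, Fbln2 and Sox11. The other 26 lost the call without at least 1 array, with adjusted p values up to 0.193. Among those named above, they were Alcam, Tpm4, Id2, Dkk1, Nodal, Smad7, Lhx1, Sp5, Evx1, Zic1, Otx2, Pax6, Col6a1, Mylk, Foxa2 and Pecam1. Alcam lost its call without any 1 array.

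**Figure D4:**
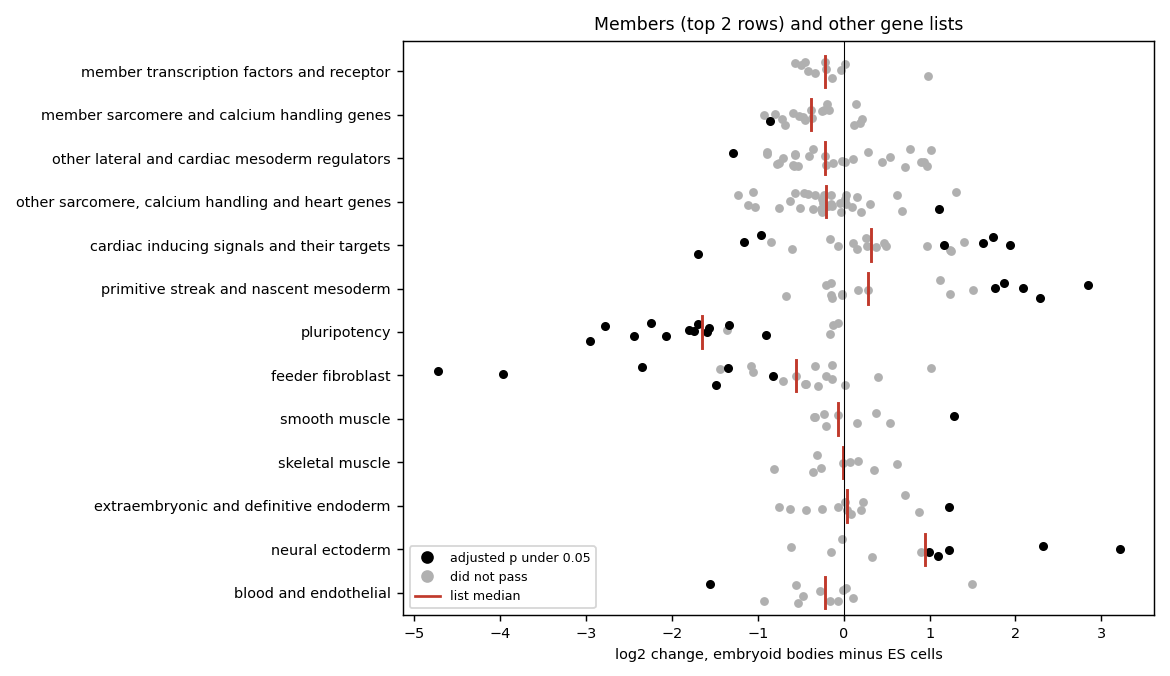
Log2 change, embryoid bodies minus ES cells, of each gene of 13 lists (1 probe set per gene, chip A where present), black for an adjusted p under 0.05, with a red line at each list's median. The top 2 rows, the 30 members, hold 1 black point (Atp2a2), while the pluripotency row holds 12, all to the left.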

How the data were processed

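Total RNA was hybridized to 2 Affymetrix chips, and each replicate had 1 array of each. Per the submitters' processing notes the deposited values came from MAS5, and each is a linear intensity of 1 probe set. Its version and the detection calls were not given in the sources used here. Without the top and bottom 2% of values, the mean was 1501 on every array of chip A and 1500.1 to 1500.2 on chip B, which shows a scaling to 1 target before deposit. Array medians were 589 to 681 on chip A and 913 to 1001 on chip B. Chip lot, fluidics position and scan day came from the deposited array settings.

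Probe sets were named through the platform annotation: 20380 of 22626 tested on chip A and 14661 of 22511 on chip B had 1 gene, 691 and 245 had several and 1555 and 7605 had none listed. Control probe sets, 64 per chip, were dropped. Each chip was fitted apart with limma 3.58.1 in R 4.3.3 (lmFit, eBayes with an intensity trend) on log2(intensity + pseudocount). Changes are given on this scale, which makes those of dim genes look smaller. The procedure was tested on simulated data. Precision is limited by having 3 arrays in a group.

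The members and gene lists were chosen with earlier results of these data known, so no test over a list is given. Every member is named. Values per array are given for a member on a chip where it passed, had an unadjusted p under 0.05, had groups without overlap, was among the 5 brightest, or was among the 3 highest or 3 lowest changes. From other lists, up to 4 genes that passed, by size of change, and the brightest that did not are named, with Pou5f1 added as a check of the labels. In the list of signals every call is named, and further genes that did not pass are named from the primitive streak list. The alternatives were other normalizations, pseudocounts, leaving out dim probe sets, no intensity trend, blocks, other choices of probe set, other thresholds, and leaving out each array. Promoter sequences are from RefSeq.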

Additional observations from a re-analysis of the deposited data

How the results depend on the processing

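With 3 arrays per group, the calls among the members were sensitive to the processing. On chip A, where 1 member was called, the count was 0 with the mean of all probe sets of a gene, 2 with the probe set without a suffix preferred, 0 at a threshold of 0.01 and 2 at 0.1, and 0 to 2 on leaving out 1 array in turn. Counting each probe set of the members, an alternative chosen after seeing the data, gave 2. On chip B, where 2 were called, it was 1 with fluidics position as a block (Ttn) and 1 with the mean of all probe sets. The latter was Foxf1 (adjusted p = 0.03895 in limma), while Ttn and Hand2 did not pass there (adjusted p = 0.726 and 0.09975). The chip B count was 0 at 0.01, 3 at 0.1 and 0 to 1 on leaving out 1 array. The median of the members on chip B was 0.64 among the 5 brighter probe sets and 0.17 to 0.55 on leaving out 1 array, while on chip A it stayed negative, at -0.47 to -0.17. Over all probe sets, the calls on chip A numbered 1425 as reported, 844 without the intensity trend, 2243 with scan day as a random block, 343 at 0.01, 2569 at 0.1 and 436 to 2091 on leaving out 1 array. On chip B they numbered 2405 as reported, 564 at 0.01, 4115 at 0.1 and 934 to 1807 on leaving out 1 array. The cause of these differences was not tested. Scan day could not be fitted on chip B, which had 2 scan days, 1 per group. On chip A no scan day held both groups either, so the random block there does not separate scan day from the states.

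The replicate numbers are shared between the groups in the labels, but same-numbered arrays did not deviate together (correlations of -0.07, 0.04 and -0.01 on chip A and -0.02, -0.03 and -0.02 on chip B). With the replicate block, 1 member was called on chip A, as without it, and 1 on chip B, where the block is the same as fluidics position. There Hand2 had an adjusted p of 0.0556 at the same log2 change of -1.43. No called value changed sign under any alternative run, while 35 values that did not pass did, over 17 genes. One of these was Mef2c on chip A, where preferring a probe set without a suffix took a different probe set, with a log2 change of -0.36.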

Other observations

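Probe sets annotated to both cardiac myosin heavy chain genes, Myh6 and Myh7, were not counted for either. Of the 2 such probe sets on chip A, the brighter had signals of 83.4, 83.9 and 16.2 in embryoid bodies, against 279.6, 395 and 64.5 in ES cells and a log2 change of -0.86, with an unadjusted limma p of 0.0379 and an adjusted p of 0.194. Each group held 1 array far below its others, EB replicate 3 and ES replicate 3. The other was at or under 50 on every array, below the pseudocount, with a log2 change of -0.12.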
